A study of Mus musculus with 7 samples.

Results

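Ccl2, Ccl7, Ccl5, Cx3cl1 and Ccrl2 are 5 genes of the chemokine system, and their expression is described here in muscle stem cells of living mice and of mice 2 or 4 days after death. They were picked by name from values of these same arrays, in which they stood out, so their own changes are given as a description and without a test. The 5 genes are among 13287 genes that the annotation names for a single-gene probe set of the deposited values. The authors had already removed non-expressed and invariant probes from these values. Each of the 5 has 1 probe set that is annotated to it alone. All 5 were among the 9944 genes that passed a filter on low signal and were tested.

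The cells were satellite cells, the quiescent stem cells that lie along the muscle fibre, sorted by size, granulosity and GFP from limb muscle of mice of genotype TgPax7nGFP, a transgene in which the Pax7 regulatory region drives nuclear GFP. There were 2 arrays of cells from living mice of 24 to 26 months (old), 2 of cells recovered 2 days post mortem (D2PM) and 3 of cells recovered 4 days post mortem (D4PM). For the mice used post mortem, an age of 8 to 12 weeks is stated. Age and death therefore cannot be told apart in a comparison with old. The age of the living mice rests on the array labels and the methods, since the title of the series calls them young adults and its design text gives the same figures in weeks. No source read here ties the arrays of a group to different mice, so a p-value measures only how far arrays lie apart, which may be technical.

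Chemokines are small secreted proteins that guide leukocytes by binding receptors that couple to G proteins. CCL2 and CCL7 recruit monocytes through CCR2, CCL5 recruits T cells and monocytes, and CX3CL1 (fractalkine) is made as a membrane-bound adhesion molecule that proteases of the ADAM family release, with CX3CR1 as its receptor. CCRL2 resembles a chemokine receptor but does not signal in the classical way, and it binds chemerin, the product of Rarres2, and presents it to cells that carry CMKLR1. In many cell types inflammatory signals through NF-kB induce these genes, interferon signalling induces Ccl5 as well, and decay factors that bind AU-rich elements keep several chemokine mRNAs short-lived.

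The 2 promoters that a RefSeq table (GRCm38.p6) held for these genes are shown because the 4 members that differed most in level between the days include both genes. Capitals mark matches to 4 motifs that were searched for on both strands of the 250 bases before the start site, written 5′ to 3′ on the strand of the gene. The first motif was the TATA box, spelled TATAAA. The second was the site of AP-1, spelled TGANTCA, the third was the kappaB consensus, and the fourth was the interferon-stimulated response element, spelled GAAANNGAAA. The motifs do not share positions in these windows. Ccrl2 lies on the minus strand at chr9:111057519-111057768 and Cx3cl1 on the plus strand at chr8:94771930-94772179.
Ccrl2: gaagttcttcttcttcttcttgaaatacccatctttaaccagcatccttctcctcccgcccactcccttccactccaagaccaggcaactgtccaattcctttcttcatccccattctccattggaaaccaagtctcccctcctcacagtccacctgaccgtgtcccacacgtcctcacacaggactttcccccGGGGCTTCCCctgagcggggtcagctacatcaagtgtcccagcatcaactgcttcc
Cx3cl1: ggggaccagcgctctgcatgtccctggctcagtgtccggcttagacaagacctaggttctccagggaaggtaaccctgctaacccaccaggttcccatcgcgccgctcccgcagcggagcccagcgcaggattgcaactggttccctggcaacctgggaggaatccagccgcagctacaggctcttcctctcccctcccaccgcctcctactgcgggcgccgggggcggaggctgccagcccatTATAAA
The Ccrl2 window held 1 match to the kappaB consensus, GGGGCTTCCC, at positions -56 to -47 relative to the start site, and 7.25% of the 32851 windows in the table held such a match. The windows of the other 2 start sites listed for Ccrl2 held no match to any of the 4 motifs. The Cx3cl1 window held the letters TATAAA in its last 6 bases, at positions -6 to -1, and none of the other 3 motifs. Of all windows 12.4% held TATAAA at any position. Whether the match next to the start site works as a TATA box was not tested. AP-1 matches were in 6.75% of all windows and matches to the interferon-stimulated response element in 2.98%. GC content was 54.0% for Ccrl2 and 64.8% for Cx3cl1, against a median of 52.4% over all windows. Ccl2, Ccl7 and Ccl5 had no entry in the table.

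In the order of genes along chromosome 11, Ccl2 is followed directly by Ccl7 and then Ccl11 and Ccl12. Ccl5 is on the same chromosome beside Ccl9 and Ccl6. Cx3cl1 lies on chromosome 8 between the chemokine genes Ccl22 and Ccl17, and Ccrl2 lies on chromosome 9 between Ltf and Lrrfip2. Array signals of some of these neighbours are given with the other CC chemokines.

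The deposited values are on the log2 scale after RMA, in which a difference of 1 is a doubling of signal and array medians lay between 6.11 and 6.19. Levels of different genes are not comparable on this scale, because probe sets differ in how strongly they bind. Satellite cell identity was checked on Pax7, Myf5 and Itga7, which had log2 levels of 9.87 to 10.52, 10.99 to 11.44 and 7.63 to 8.20 over the 7 arrays. The mean of 12 satellite cell markers was 9.89 to 9.93 in old, 9.96 to 10.07 at D2PM and 9.89 to 10.15 at D4PM. Single markers went both ways against old: in limma 2 of the 12 were higher and 1 lower at D2PM, and 3 were higher and 2 lower at D4PM, with differences of -0.81 to 0.79.

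Ccl2, Ccl7, Cx3cl1 and Ccrl2 shared a pattern in which all 3 D4PM arrays lay above both D2PM arrays and both old arrays. Their mean log2 levels were 0.98 to 1.14 higher at D4PM than at D2PM. Ccl5 differed from them, because most of its difference from old was already present at D2PM.

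Ccl2, the main monocyte attractant of the group, had log2 levels of 9.64 and 9.96 on the old arrays, 9.67 and 9.26 at D2PM, and 10.49, 10.95 and 10.37 at D4PM. The D4PM arrays were the highest, with 0.70 between the lowest of them and the highest D2PM array, and the D2PM and old arrays overlapped. Group means were 9.80 ± 0.23 (SD, n = 2) in old, 9.46 ± 0.29 (SD, n = 2) for D2PM and 10.60 ± 0.30 (SD, n = 3) for D4PM. The estimated log2 difference was 1.14 (SE 0.19) between D4PM and D2PM, which is 2.20-fold, and 0.80 (SE 0.19) between D4PM and old, which is 1.75-fold. Between D2PM and old it was -0.34 (SE 0.21). The order of the levels was thus D4PM, old and D2PM, and the last 2 did not differ beyond their spread.

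Ccl7, the neighbour of Ccl2 and another ligand of CCR2, had log2 levels of 8.82 and 8.72 on the old arrays, 9.12 and 8.76 at D2PM, and 10.11, 10.21 and 9.77 at D4PM. All D4PM arrays lay apart from the other 4, whose 2 groups overlapped. Its means were 8.77 ± 0.07 (SD, n = 2), 8.94 ± 0.26 (SD, n = 2) and 10.03 ± 0.23 (SD, n = 3) in old, D2PM and D4PM. D4PM exceeded D2PM by 1.09 (SE 0.16, 2.13-fold) and old by 1.26 (SE 0.16, 2.40-fold) on the log2 scale, whereas D2PM and old were 0.17 apart (SE 0.18).

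Ccl5, which encodes an attractant of T cells and monocytes, had log2 levels of 6.22 and 7.02 on the old arrays, 9.71 and 9.72 at D2PM, and 10.31, 11.24 and 9.57 at D4PM. Every post-mortem array lay at least 2.56 above the higher old array, and the 2 post-mortem groups overlapped, since D4PM replicate 3 was below both D2PM arrays. Means were 6.62 ± 0.57 (SD, n = 2) in old, 9.71 ± 0.01 (SD, n = 2) for D2PM and 10.37 ± 0.83 (SD, n = 3) for D4PM. The log2 difference from old was 3.10 (SE 0.41, 8.55-fold) at D2PM and 3.75 (SE 0.37, 13.5-fold) at D4PM. Between the days it was 0.66 (SE 0.37), and this value depended on single arrays: it was 0.23 without D4PM replicate 2 and 1.06 without D4PM replicate 3. The D4PM arrays spanned 1.66 for Ccl5, the widest range of any of the 5 genes in any group.

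Cx3cl1, which encodes fractalkine, had log2 levels of 6.42 and 6.53 on the old arrays, 6.39 and 6.05 at D2PM, and 7.19, 6.99 and 7.49 at D4PM. The D4PM arrays were again the highest, and the D2PM arrays lay below the old ones by as little as 0.03. Means were 6.47 ± 0.08 (SD, n = 2), 6.22 ± 0.24 (SD, n = 2) and 7.22 ± 0.25 (SD, n = 3) in old, D2PM and D4PM. D4PM exceeded D2PM by 1.01 (SE 0.16, 2.01-fold) and old by 0.75 (SE 0.16, 1.68-fold) on the log2 scale, and D2PM minus old was -0.26 (SE 0.18). Replicate 3 had the highest D4PM value of Cx3cl1 and the lowest of Ccl5.

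Ccrl2, which encodes the chemerin-binding receptor, had log2 levels of 7.38 and 7.09 on the old arrays, 7.68 and 7.35 at D2PM, and 8.56, 8.54 and 8.39 at D4PM. The 3 D4PM arrays lay close together and 0.71 or more above every D2PM array, while D2PM and old overlapped. Means were 7.24 ± 0.20 (SD, n = 2), 7.51 ± 0.23 (SD, n = 2) and 8.50 ± 0.09 (SD, n = 3) in old, D2PM and D4PM. D4PM exceeded D2PM by 0.98 (SE 0.15, 1.98-fold) and old by 1.26 (SE 0.15, 2.40-fold) on the log2 scale, and D2PM minus old was 0.28 (SE 0.16).

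**Figure D1:**
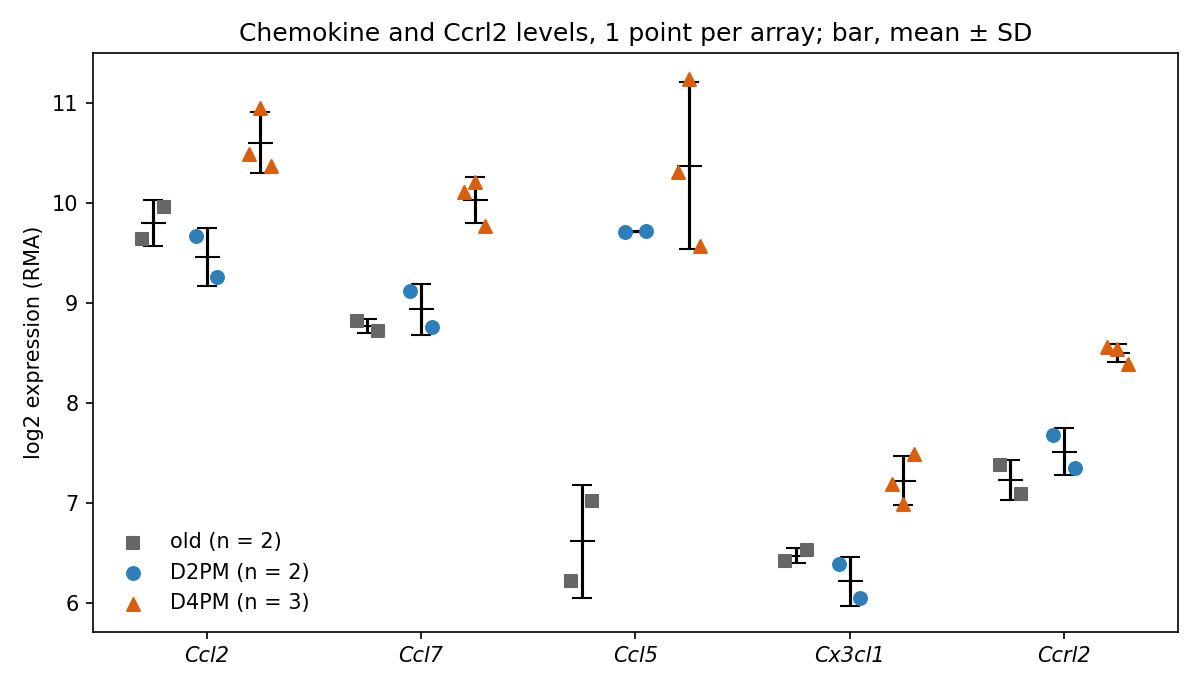
Log2 expression (RMA) of Ccl2, Ccl7, Ccl5, Cx3cl1 and Ccrl2, with 1 point per array and bars for the mean ± SD of each group (2 old, 2 D2PM and 3 D4PM arrays). The D4PM arrays lie above all others for every gene except Ccl5, which is at 9.57 or more on all post-mortem arrays and at 7.02 or less on both old arrays.

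These values chose the genes, so the counts that follow are given for orientation and nothing is read from them. A gene was called changed at a Benjamini-Hochberg adjusted p under 0.05 from limma, in 1 fit of all 7 arrays. Between D4PM and D2PM, 4 of the 5 members were called higher, all but Ccl5, where 0.161% of the 9944 genes were called higher and 0.0302% lower. The arrays of the 2 days did not overlap for the same 4 members and for 25.3% of all genes. The calls depended on the number of arrays, as 0 members were called in 6 of the 7 fits with 1 array left out and 3 in the fit without D4PM replicate 3. Ordered from the most positive difference down, Ccl2, Ccl7, Cx3cl1, Ccrl2 and Ccl5 ranked 12, 13, 17, 20 and 51 among 9944 genes.

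Against old, all 5 members were called higher at D4PM and 1 member, Ccl5, at D2PM. Of all genes 12.4% were called higher and 15.5% lower at D4PM, and 10.3% higher and 9.11% lower at D2PM. With each array centred on its median instead, 1039 genes were called higher and 1864 lower at D4PM (1231 and 1539 otherwise), and 883 higher and 1092 lower at D2PM (1025 and 906 otherwise). Without either old array, 3 members were called at D4PM. The arrays of D4PM and old did not overlap for all 5 members and for 54.5% of all genes, and those of D2PM and old for 2 members, Ccl5 (higher) and Cx3cl1 (lower), and 62.2% of all genes. Both comparisons use the same 2 old arrays. In the same order the difference of Ccl5 from old ranked 3 at D2PM and 7 at D4PM, and the other members ranked 123 (Ccrl2), 125 (Ccl7), 400 (Ccl2) and 466 (Cx3cl1) at D4PM.

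The members were also compared with every tested gene by profile, as the root mean square difference of log2 values over the 7 arrays after each gene's own mean was subtracted. Ccl7 and Ccrl2 were each other's nearest gene of all, at 0.11 (Pearson r = 0.98 over 7 arrays), although they lie on different chromosomes. The median distance of all genes from Ccl7 was 0.63 and from Ccrl2 0.61. The 7 arrays share their group differences, so such an r is a description of these arrays.

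Ccl2 was nearest to Ms4a4d (0.25, r = 0.89), to Ccl7 (0.26, r = 0.90) and to Samd9l (0.29, r = 0.85). Ccl7 was next nearest to Ms4a4d (0.21, r = 0.94) and 4732471J01Rik (0.22, r = 0.94), and Ccrl2 to Aldh1a1, a retinaldehyde dehydrogenase, and 4732471J01Rik (both 0.18, r = 0.95). Cx3cl1 was nearest to Slc10a1, a bile acid transporter (0.15, r = 0.95), Lsmem1 (0.16, r = 0.94) and Tnfaip3, the gene of the NF-kB inhibitor A20 (0.19, r = 0.94). Ccl5 had a different neighbourhood, made of Rsad2 (0.45, r = 0.97), Ifnb1 (0.46, r = 0.98) and Ifit3b (0.46, r = 0.96), genes of interferon beta itself and of proteins that interferon induces. Its distances from the other 4 members were 1.29 to 1.55 (r = 0.39 to 0.75), and those among the other 4 were 0.11 to 0.34. The median distance of all genes from Ccl5 was 1.68, so the other members were nearer to it than most genes. This distance grows with the range of a gene over the 7 arrays, which was 5.02 for Ccl5 and 1.44 to 1.69 for the other 4.

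**Figure D2:**
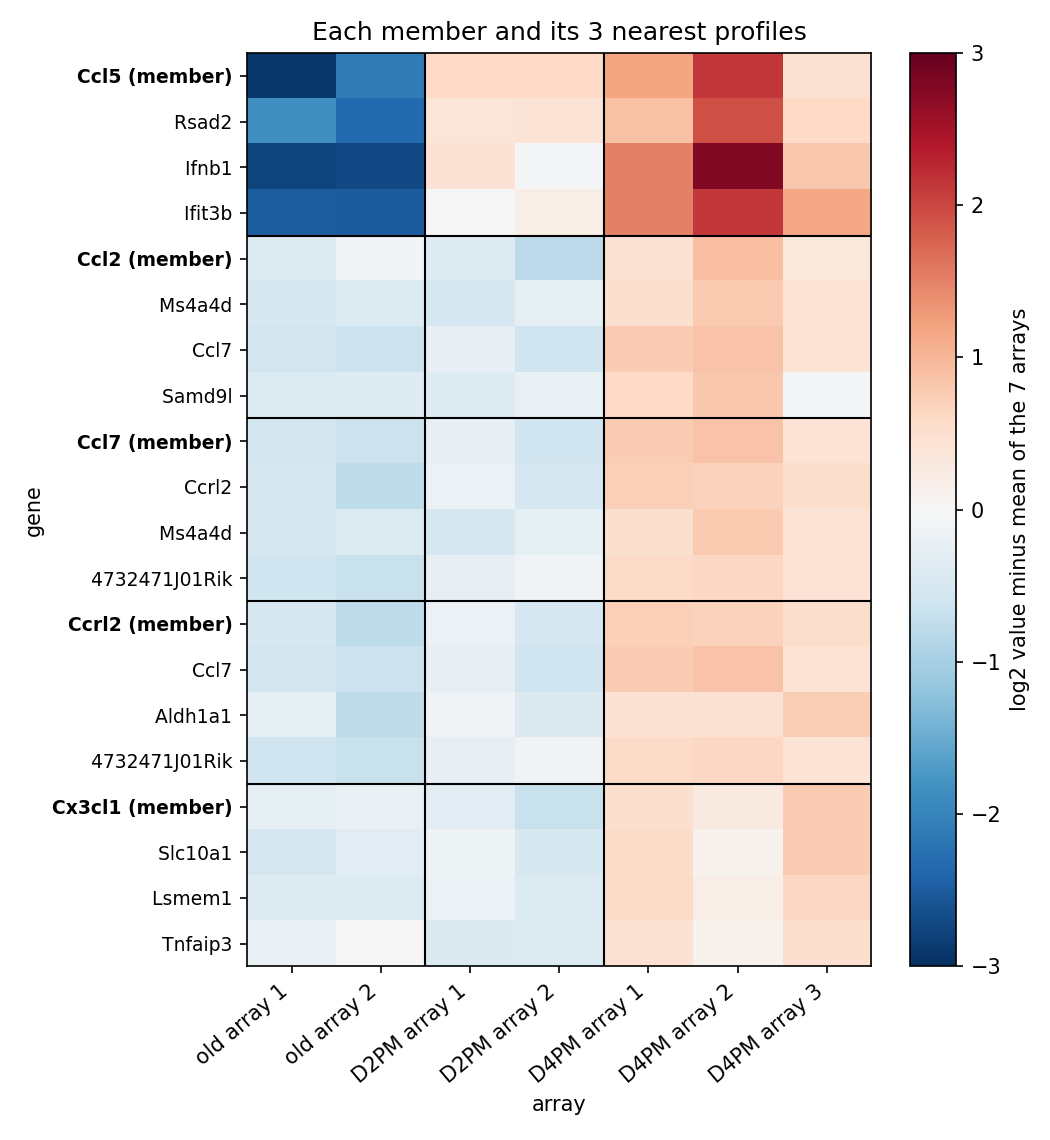
Log2 expression of the 5 genes and of the 3 genes nearest to each, as colour after subtraction of each gene's mean over the 7 arrays (columns). Ccl2, Ccl7, Cx3cl1, Ccrl2 and the genes near them change colour mainly between D2PM and D4PM, and Ccl5 with Rsad2, Ifnb1 and Ifit3b changes mainly between old and D2PM.

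Of 18 other CC ligands, 5 were tested, 5 fell below the filter (Ccl3, Ccl8, Ccl9, Ccl24 and Ccl26) and 8 had no probe set of their own. At D4PM Ccl19, a ligand of CCR7, rose against old by 1.09 (SE 0.23, limma adjusted p = 0.00485), and the other 4 were not called, where 12.4% of all genes were called higher. Its log2 levels were 9.85 and 9.13 in old, 9.67 and 9.50 at D2PM, and 10.62, 10.22 and 10.91 at D4PM, so the D4PM arrays were the highest. Mouse Ccl19 has near-identical copies whose transcripts its probes may share, and without old replicate 2 the adjusted p was 0.117 with a change of 0.73.

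Between D4PM and D2PM 0 of these 5 CC ligands were called by limma (2 at an unadjusted p under 0.05), although all 5 differences were above 0, with a median of 0.46 against -0.03 over all genes. Between D2PM and old 0 were called (1 at an unadjusted p under 0.05, median -0.02 against 0.00 over all genes), and the median between D4PM and old was 0.18. Ccl11 (eotaxin), which follows Ccl7 on the chromosome, had log2 levels of 8.67 and 8.41 in old, 7.92 and 8.12 at D2PM, and 8.29, 9.09 and 8.76 at D4PM. Its D4PM value exceeded D2PM by 0.69 (limma adjusted p = 0.412), below the differences of Ccl2 and Ccl7. Ccl6, beside Ccl5, differed between D4PM and old by -0.09 (limma adjusted p = 0.66). Ccl4, which encodes a macrophage inflammatory protein, stood at 8.18 on D4PM replicate 2, the array with the highest Ccl5, and between 5.97 and 6.56 on the other 6.

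Among CXC and XC ligands, of which 13 of 16 were tested, Cxcl10, an interferon-induced attractant of T cells, was on both post-mortem days far above old, as Ccl5 was. Its log2 levels were 8.34 and 8.36 in old, 11.43 and 11.51 at D2PM, and 12.34, 12.24 and 12.17 at D4PM. It rose against old by 3.12 (SE 0.13, adjusted p = 2.8e-07) at D2PM and by 3.90 (SE 0.12, adjusted p = 8.18e-09) at D4PM in limma. Between the days it rose by 0.79 (SE 0.12, limma adjusted p = 0.0347), and this call was lost whichever array was left out (adjusted p 0.0502 to 0.84, change 0.74 to 0.83).

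The neutrophil attractants Cxcl2, Cxcl3 and Cxcl5 went the other way against old. In limma Cxcl5 fell by 3.35 at D2PM (adjusted p = 8.31e-06) and fell by 3.72 at D4PM (adjusted p = 7.23e-07). Cxcl3 fell by 3.26 in both comparisons, and Cxcl2 fell by 3.35 at D2PM and fell by 3.11 at D4PM. Counting the whole list, with Cxcl5 among the falls, 2 genes rose and 4 fell at D2PM, and 4 rose and 4 fell at D4PM. The list medians of -0.24 and -0.32 compare with 0.00 and -0.00 over all genes. Between the days 1 gene rose and 0 fell, with a list median of 0.19.

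**Figure D3:**
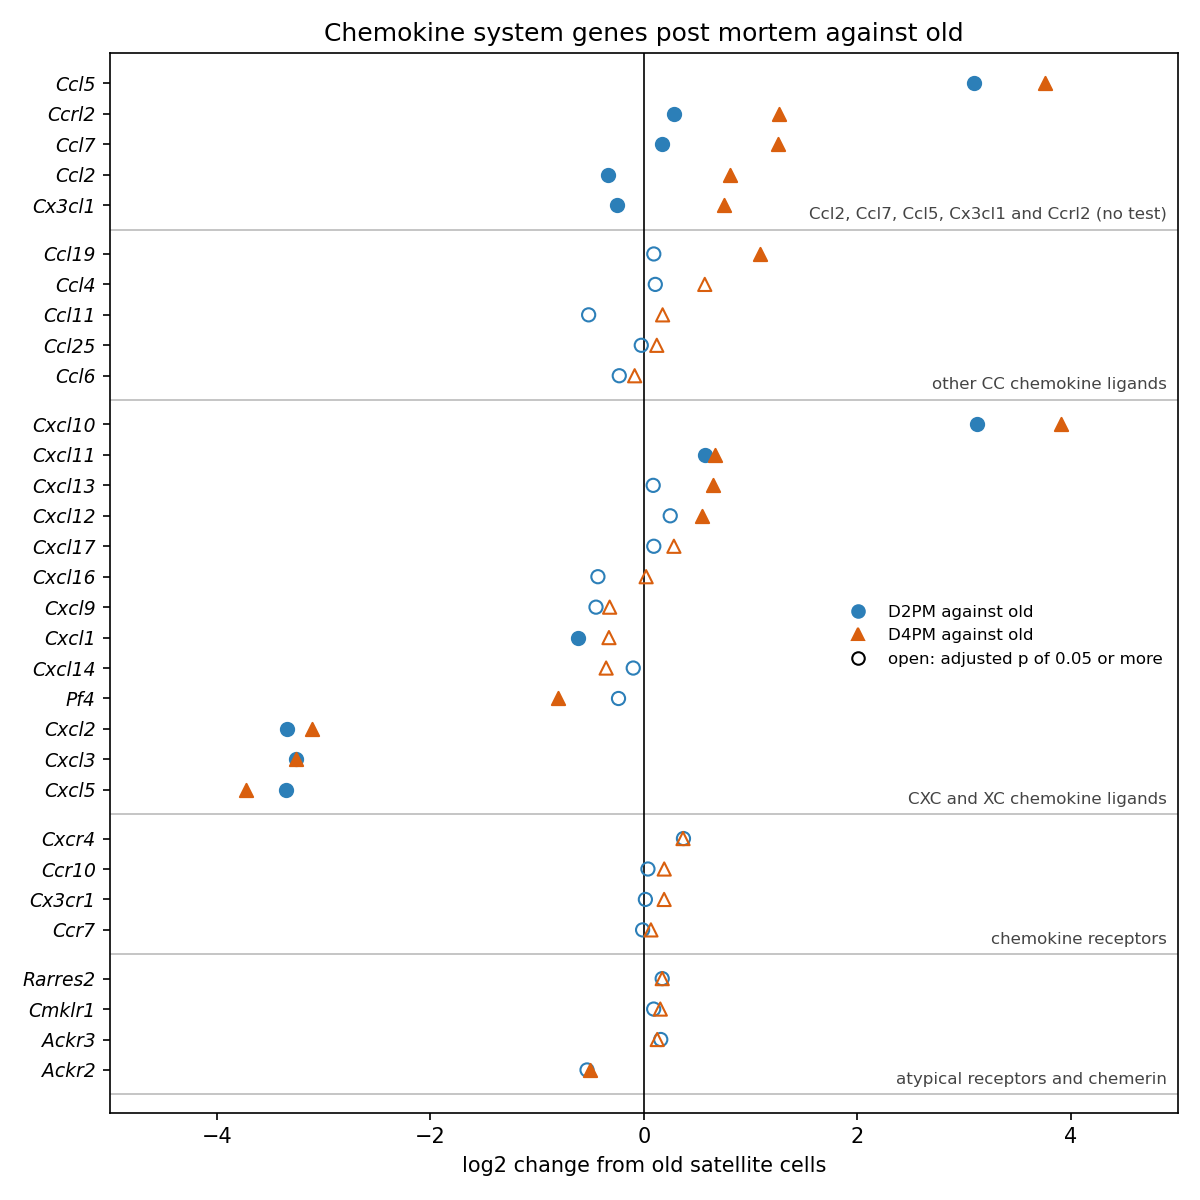
Estimated log2 change from old for Ccl2, Ccl7, Ccl5, Cx3cl1 and Ccrl2 and for the tested genes of 4 lists of the chemokine system, with 1 circle for D2PM (2 arrays) and 1 triangle for D4PM (3 arrays) per gene, both against the same 2 old arrays. Open symbols mark an adjusted p of 0.05 or more from limma for list genes and the 5 genes at the top carry no test. Ccl5 and Cxcl10 lie 3.10 to 3.90 above old on both days and Cxcl2, Cxcl3 and Cxcl5 lie between -3.72 and -3.11 relative to it.

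Receptors that would read these ligands were poorly covered. Of 19 chemokine receptors 4 were tested and 3 fell below the filter, and the other 12, among them Ccr2, had no probe set of their own, so the level of the main receptor of CCL2 and CCL7 is not given. Cx3cr1, the receptor of fractalkine, had log2 levels of 5.70 to 5.91 in old, 5.73 to 5.91 at D2PM and 5.91 to 6.08 at D4PM. Its D4PM value exceeded D2PM by 0.18 (limma adjusted p = 0.708), whereas its ligand gene Cx3cl1 was 1.01 higher. In limma 0 of the 4 receptors were called in any comparison, with 1, 1 and 0 at an unadjusted p under 0.05 for D2PM against old, D4PM against old and D4PM against D2PM, and medians of 0.03, 0.19 and 0.12.

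Around Ccrl2, Rarres2, the gene of its ligand chemerin, had log2 levels of 10.41 to 10.74 in old, 10.62 to 10.87 at D2PM and 10.66 to 10.80 at D4PM, and the groups overlapped. Cmklr1, the signalling receptor of chemerin, was at 5.11 to 5.44 on all 7 arrays. Ackr2, a decoy receptor that takes up inflammatory CC chemokines, fell against old by 0.51 at D4PM (SE 0.17, limma adjusted p = 0.0475). Its log2 levels were 5.89 and 6.06 in old, 5.43 and 5.46 at D2PM, and 5.10, 5.68 and 5.62 at D4PM. The call of Ackr2 was lost in 5 of the 7 fits with 1 array left out, namely without either old array, either D2PM array or D4PM replicate 1, where the adjusted p reached 0.294. It was the single call among 4 tested genes of 7 in this list, whose medians were 0.13, 0.14 and 0.01 for D2PM against old, D4PM against old and D4PM against D2PM.

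Of the proteases that process chemokines, 4 of 7 were tested, and Adam17, which sheds fractalkine from the cell surface, fell at D4PM against old by 0.60 (SE 0.17, limma adjusted p = 0.0199). Its log2 levels were 7.76 and 8.07 in old, 7.52 and 7.52 at D2PM, and 7.42 and 7.52 on D4PM replicates 1 and 2, with replicate 3 the lowest. The values of both D2PM arrays and D4PM replicate 2 were identical in all digits, so the D2PM arrays added no spread to its fit. The call was lost without old replicate 2, without either D2PM array and without D4PM replicate 3, with an adjusted p of up to 0.216. Adam10, the other sheddase of fractalkine, differed from old by -0.03 at D4PM. In the other comparisons limma called 0 of the 4, also at an unadjusted p under 0.05, with list medians of -0.06 for D2PM against old and -0.17 for D4PM against D2PM.

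Genes of the NF-kB pathway, a list that holds both subunits and inhibitors, were mostly lower post mortem than in old. These are mRNA levels, and the activity of NF-kB and its part in the levels of the members were not tested. Of 11 tested genes of 14, 6 fell and 0 rose at D2PM, and 6 fell and 1 rose at D4PM, with medians of -0.42 and -0.41. In limma Nfkb2, which encodes the subunit p52, fell by 1.02 at D2PM (SE 0.14, adjusted p = 0.000932) and fell by 1.08 at D4PM (SE 0.13, adjusted p = 0.000188). Bcl3, a nuclear protein of the IkB family, fell by 1.20 at D2PM (adjusted p = 0.00798) and fell by 1.31 at D4PM (adjusted p = 0.00186). Rela, the p65 subunit, fell by 0.69 at D2PM and fell by 0.83 at D4PM (limma adjusted p = 0.00798 and 0.0011). Its values on both D2PM arrays and D4PM replicate 1 were identical in all digits, so the D2PM arrays added no spread to its fit. Relb, another subunit, fell by 0.66 at D2PM and fell by 0.63 at D4PM (limma adjusted p = 0.0159 and 0.009). With 1 array left out the changes of Relb were -0.81 to -0.51 and -0.76 to -0.49. Its calls on both days were lost without old replicate 2, and that at D2PM also without D2PM replicate 1. The D2PM calls of Bcl3 and Rela were lost without old replicate 2 and without either D2PM array, that of Bcl3 also without old replicate 1, with adjusted p of up to 0.0974 and 0.0808.

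The gene of this list that rose was Tnfaip3, which lay among the 3 profiles nearest to Cx3cl1, with a change of 0.43 at D4PM against old (limma adjusted p = 0.0478), a call that was lost in 6 of the 7 fits with 1 array left out, all but that without D4PM replicate 2 (adjusted p of up to 0.24). Its log2 levels were 7.99 and 8.22 in old, 7.77 and 7.79 at D2PM, and 8.64, 8.29 and 8.68 at D4PM. The D2PM arrays were thus the lowest and the D4PM arrays the highest, the same order as for Cx3cl1. Between D4PM and D2PM 0 genes of the list were called by limma (1 at an unadjusted p under 0.05), the median was 0.04, and the difference of Tnfaip3 was 0.76 (adjusted p = 0.101).

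Of 11 genes of factors that promote or oppose mRNA decay, all tested, 3 fell at D2PM against old, and 4 fell and 1 rose at D4PM. The medians were -0.19 and -0.30. Cnot1 and Cnot7, which encode the scaffold and a catalytic subunit of the complex that removes poly(A) tails, fell by 0.79 and fell by 0.71 at D4PM (limma adjusted p = 0.0029 and 0.00281). Without old replicate 2 the adjusted p of Cnot1 was 0.0664. At D2PM Cnot1, Cnot7 and Hnrnpd fell by 0.61, 0.46 and 0.42 (limma adjusted p = 0.0255, 0.0486 and 0.0474), the last 2 near the threshold. With 1 array left out these changes were -0.75 to -0.46, -0.49 to -0.43 and -0.49 to -0.35. All these D2PM calls were lost without old replicate 2 and without either D2PM array. Those of Cnot7 and Hnrnpd were also lost without old replicate 1 and without D4PM replicate 3. That of Hnrnpd was lost without D4PM replicate 1 as well. Zfp36l2, a protein that binds AU-rich elements, rose by 0.44 at D4PM (limma adjusted p = 0.0414), and Khsrp, the gene of another such protein, fell by 0.38 (adjusted p = 0.032). The call of Zfp36l2 was lost in 6 of the 7 fits with 1 array left out, all but that without D4PM replicate 2, and that of Khsrp in 5, all but those without a D2PM array (adjusted p of up to 0.267 and 0.144). Between the days 0 of the 11 were called by limma, 0 at an unadjusted p under 0.05, and the median was -0.08.

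Cells other than satellite cells also make these chemokines, so markers of the cell types that limb muscle holds were read on the same arrays. In sorted bulk samples, fewer cells of a type and less RNA per cell cannot be told apart. In limma 0 of the leukocyte markers tested rose in any comparison, and no marker of T and NK cells was tested. Of 13 T and NK cell markers, 8 had no probe set of their own, as did 4 of 15 macrophage and monocyte markers. The mean of 11 measured macrophage and monocyte markers was 5.13 to 5.69 in old, 5.07 to 5.32 at D2PM and 5.04 to 5.29 at D4PM, and Ptprc (3.89 to 4.34) and Csf1r (4.54 to 4.94) were under the filter value of 5.12. Of the list, 6 genes were tested, and 1 fell in each comparison with old (2 and 1 at an unadjusted p under 0.05 at D2PM and D4PM). Between D4PM and D2PM limma called 0 of the 6, and 2 had an unadjusted p under 0.05, Cd68 (0.45 higher at D4PM) and Cd74 (a difference of -0.89). Cd68 had log2 levels of 7.40 and 7.50 in old, 6.90 and 7.02 at D2PM, and 7.80, 7.12 and 7.31 at D4PM, so its D4PM arrays lay above its D2PM arrays, as those of Ccl2, Ccl7, Cx3cl1 and Ccrl2 did. The part of macrophages in the levels of the 5 genes was not tested. All 5 measured markers of T and NK cells were below the filter, with list means of 4.24 to 4.35 in old, 4.36 to 4.39 at D2PM and 4.29 to 4.42 at D4PM.

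Endothelial markers were higher post mortem than in old, as Ccl5 was. All 14 genes of the list were above old on average, 6 of them called higher at D2PM and 11 at D4PM, with medians of 0.66 and 0.93 against medians of 0.00 and -0.00 over all genes. Cdh5 (VE-cadherin) had log2 levels of 7.53 and 6.25 in old, 8.52 and 8.57 at D2PM, and 9.02, 8.83 and 8.46 at D4PM. Between D4PM and D2PM 0 of the 14 were called by limma, 0 at an unadjusted p under 0.05. All 14 differences were nevertheless above 0, with a median of 0.28 against -0.03 over all genes. The list mean was 6.48 and 5.82 on the old arrays, 6.86 and 6.90 at D2PM, and 7.45, 7.22 and 6.83 at D4PM. The old arrays thus lay further apart from each other than the higher of them lay from either D2PM array. D4PM replicate 3 had the lowest endothelial mean of the post-mortem arrays, and among the D4PM arrays it was also the lowest for Ccl2 (10.37), Ccl7 (9.77), Ccl5 (9.57) and Ccrl2 (8.39) and the highest for Cx3cl1 (7.49). The part of endothelial cells in the levels of the 5 genes was not tested.

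Fibroadipogenic progenitor markers had a list mean of 7.91 to 8.52 in old, 8.64 to 8.77 at D2PM and 8.16 to 8.57 at D4PM. The mean of neutrophil markers was 5.82 to 6.46, 6.18 to 6.48 and 5.36 to 6.61 in the same order. In limma 2 of the 9 tested progenitor markers were higher than old at D2PM (median 0.46) and 1 at D4PM (median 0.05), and between the days 0 were called, with 3 at an unadjusted p under 0.05 and a median of -0.27. Of the 5 tested neutrophil markers 0 were called in any comparison, also at an unadjusted p under 0.05. The part of these cell types in the levels of the 5 genes was not tested.

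**Figure D4:**
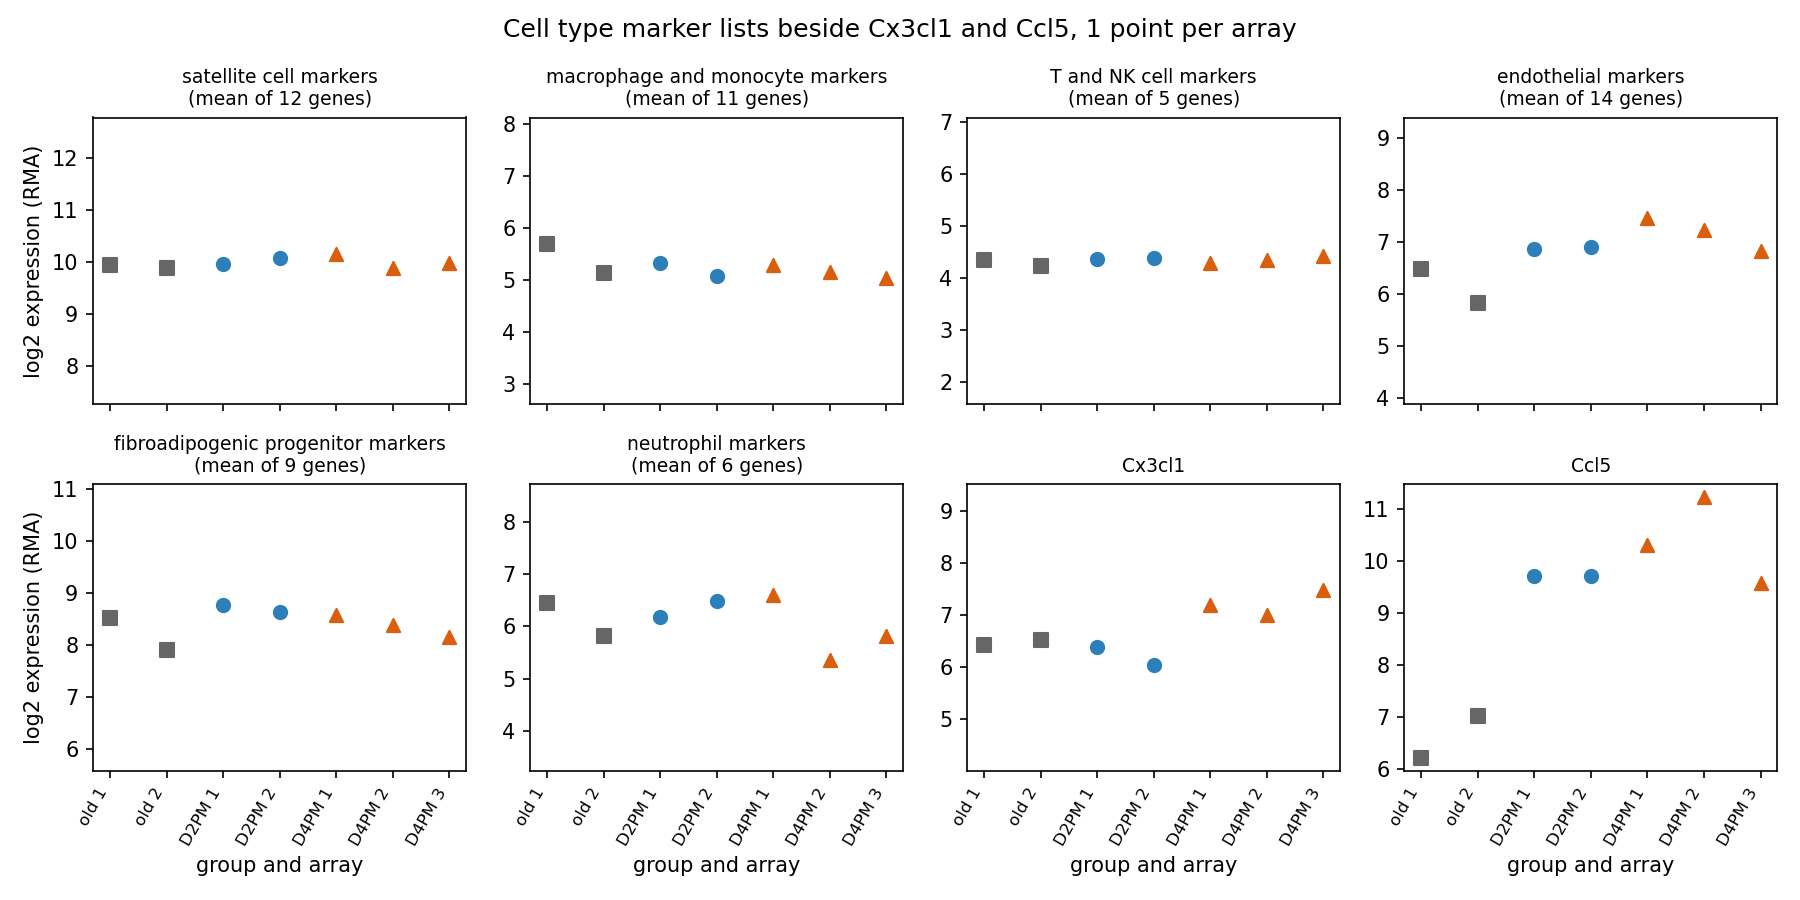
Mean log2 expression (RMA) of each list of cell type markers, and log2 expression of Cx3cl1 and Ccl5, with 1 point per array (2 old, 2 D2PM and 3 D4PM). Every panel spans the same number of log2 units and levels are to be compared within a panel. The endothelial mean is at 5.82 and 6.48 on the old arrays and at 6.83 to 7.45 post mortem. No leukocyte list lies higher on all post-mortem arrays than on both old arrays.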

How the data were processed

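RNA of sorted cells was amplified (Ovation Pico V2) and hybridised to GeneChip Mouse Gene 1.0 ST arrays. The values that the authors deposited are log2 after RMA. The methods place the removal of non-expressed and invariant probes after normalisation, with thresholds not given in the sources used here. RMA brings the arrays to one distribution before probes are summarised to probe sets, and changes of genes near background can be compressed. Of 18675 probe sets, 14480 had 1 gene. Each gene took its brightest probe set, and genes whose mean reached 5.12 (25th percentile) went into 1 fit of 3 groups (limma 3.58.1, R 4.3.3, 4 residual degrees of freedom, Benjamini-Hochberg adjustment over 9944 genes, adjusted p under 0.05). The number of arrays limits the precision. The fit was checked on simulated data.

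The 5 genes and all lists were chosen with earlier results of these data known. Genes named are the 5, the 3 nearest profiles of each, up to 4 called genes per list and comparison with the largest change and no overlap, Pax7, Myf5 and Itga7, and the brightest tested marker of other cell types. Ccl4, Ccl6, Ccl11, Cx3cr1, Rarres2, Cmklr1, Adam10, Cd74, Ptprc and Csf1r were named after their values were seen. Alternatives were other scalings, filters, probe set summaries, variance priors, array weights, a replicate block, the post-mortem arrays alone, Student's t-test, which the methods name for other data, and each array left out.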

Additional observations from a re-analysis of the deposited data

Results flagged for a closer look

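These genes stand here because their difference from old was larger at D4PM than at D2PM. The excess was 1.14 for Ccl2, 1.09 for Ccl7, 1.01 for Cx3cl1 and 0.98 for Ccrl2 on the log2 scale, and these 4 were chosen from the same values, so this is a description and no test. Cxcl10 had an excess of 0.79 (limma adjusted p = 0.0347), a call that was lost whichever array was left out (adjusted p 0.0502 to 0.84). Since old cancels out of this difference, it equals D4PM minus D2PM.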

How the results depend on the processing

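The differences of the 5 genes moved by less than the residual SD of the fit in all 125 values from other settings and all 105 with 1 array left out. Many of these values could not move, so the totals do not measure robustness. Each gene has 1 probe set, so other filters, probe set summaries and variance priors return the same estimate, as do the post-mortem arrays alone. Leaving out an array of a group outside a comparison also leaves its estimate unchanged. Within the residual SD, Ccl7 at D2PM against old went from 0.17 to -0.01 without D2PM replicate 1, a change of sign. Ccl5 at D4PM against D2PM went from 0.66 to 0.23 without D4PM replicate 2. Calls depended on the setting. Over all genes limma called 1931 (D2PM against old), 2770 (D4PM against old) and 19 (D4PM against D2PM). With 1 array left out these were 323 to 2054, 911 to 2512 and 0 to 21. Student's t-test with adjustment called 15, 14 and 0 (692 unadjusted for the last), and the post-mortem arrays alone gave 2. A replicate block gave 54 for the last (37 higher, 17 lower), with all 5 members among them. Arrays share only a number: the deviations of 6 same-numbered pairs had correlations of -0.08 to 0.05, and an array was closest to its own number in 7 of 12 cases. In a group of 2 arrays the deviations mirror each other. These values are therefore not independent and cannot decide whether same-numbered arrays belong together. Members called between the days were 4, and 3 with a trended, robust prior, 5 with the replicate block and 0 with the post-mortem arrays alone.

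List counts were within 1.5 times in 184 of 217 other values and in 106 of 147 with 1 array left out. Counts that stayed at 0 are among them, so these totals do not measure robustness either. The rest were these. For D2PM against old, the adjusted t-test called 0 CXC (6 in limma), 0 NF-kB (6) and 0 decay genes (3), no filter gave 1 other CC ligand (0) and 1 decay gene, the replicate block gave 1 atypical receptor (0) and 1 decay gene, and array weights and the unadjusted t-test gave 1 atypical receptor. With 1 array left out these were 0 to 1 atypical receptors, 1 to 7 NF-kB genes (1 without old replicate 2) and 0 to 3 decay genes. For D4PM against old, the adjusted t-test called 1 CXC ligand (8 in limma) and 0 other CC ligands (1), atypical receptors (1), proteases (1), NF-kB (7) and decay genes (5), and the unadjusted t-test 0 CC ligands, 0 atypical receptors, 0 proteases and 1 receptor (0). No filter gave 2 CC ligands, a 50th percentile filter 4 CXC ligands and 0 atypical receptors, array weights 0 atypical receptors, a trended, robust prior 1 receptor, and the replicate block 0 proteases and 2 decay genes. With 1 array left out these were 0 to 1 for CC ligands, atypical receptors and proteases, 5 to 7 for CXC, 3 to 5 for NF-kB and 1 to 3 for decay genes. For D4PM against D2PM, the replicate block and the unadjusted t-test gave 1 other CC ligand (0), the unadjusted t-test 3 CXC (1) and 2 NF-kB genes (0), array weights 1 NF-kB gene, and the adjusted t-test, the post-mortem arrays alone and each array left out 0 CXC genes. The t-test counts leave out 21 p-values that were not defined at zero variance. The causes were not tested.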

Other observations

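Dpt, the brightest tested progenitor marker, had log2 levels of 12.14 and 11.84 in old, 12.01 and 11.81 at D2PM, and 11.62, 11.60 and 11.84 at D4PM. S100a9, the brightest tested neutrophil marker, had log2 levels of 8.53 and 6.99 in old, 8.03 and 8.75 at D2PM, and 8.99, 6.03 and 7.16 at D4PM.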
